A study of Mus musculus with 9 samples.

Results

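The genes described here are 10 feedback regulators of MAP kinase signalling, chosen by symbol in the deposited count table: Dusp1, Dusp2, Dusp4, Dusp5, Dusp6, Dusp10, Dusp16, Spry1, Spry2 and Spred1. All 10 were found among its 49315 genes, and all 10 passed the filter on low counts, although Spry1 passed it only through the treated groups. Gene expression was measured by total RNA sequencing in RAW 264.7 cells, an established mouse macrophage line that can be turned towards osteoclasts with the cytokine RANKL. The 9 libraries fall into 3 groups of 3. The control had no pamidronate, the second group received 140 µM pamidronate, and the third received 140 µM pamidronate with 5.25 µM geranylgeraniol (GGOH). Per the growth notes, every group shared RANKL at 20 ng/ml, given after 24 h of culture, and pamidronate was added at 48 h in total and left for 24 h. The controls are labelled as untreated, so whether they also had RANKL rests on those notes, and the names of the pamidronate + GGOH libraries carry a percent tag that the labels do not explain. Pamidronate is a nitrogen-containing bisphosphonate that blocks farnesyl diphosphate synthase and so lowers the lipids that anchor Ras and other small GTPases in membranes. GGOH can refill the geranylgeranyl lipid but not the farnesyl lipid used by Ras.

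MAP kinases are switched on by phosphorylation of a threonine and a tyrosine, and dual-specificity phosphatases (the Dusp genes) remove both phosphates. Ras activates Raf, MEK and ERK in turn, and ERK activity switches on several of the genes that restrain it, among them Dusp4, Dusp5, Dusp6 and the Sprouty and Spred genes. Their RNA levels are therefore often read beside ERK activity, although p38, JNK and other stress signals also switch on several Dusp genes. In macrophages and osteoclast precursors the pathway is driven by the M-CSF receptor Csf1r, by RANK and by innate immune receptors. ERK phosphorylation itself was not measured here.

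The 10 genes did not move together. With pamidronate, 7 were called higher and 2 lower, where 36.2% of all genes tested were called higher and 32.9% lower. Spry1, among the 7, passed the filter only through the treated groups. Dusp1 and Dusp4 rose 10.2-fold and 8.68-fold, while Dusp6 fell 15.8-fold and Spred1 fell 5.49-fold. When GGOH was present with pamidronate, Dusp6 was 8.74-fold and Spred1 2.56-fold higher than with pamidronate alone, and Dusp4 was 3.96-fold and Dusp1 2.52-fold lower. Dusp5, Dusp2, Spry1 and Spry2 were not called in that comparison, where 48.8% of all genes tested were called.

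The counts behind these values came from libraries of 14356069 to 18957968 counts. Several measures moved with the groups. Mitochondrial RNA made up 10.4% to 10.8% of counts in the control, 3.71% to 5.19% with pamidronate and 5.43% to 6.31% with pamidronate + GGOH. Malat1, a nuclear RNA, took 1.35% to 1.66%, 4.53% to 4.99% and 2.39% to 2.82% in the same order, and Gm26917 took 7.17% to 8.41%, 12.1% to 12.9% and 10% to 11.7%. Genes with at least 1 count numbered 20558 to 22349, 24287 to 26635 and 25202 to 28054. The 11 macrophage markers listed summed to 26649 to 32411 TPM (deposited transcript levels scaled per length and depth) in the control, 8478 to 12365 with pamidronate and 13394 to 19727 with pamidronate + GGOH. All 11 had counts in every group, with Lyz2 the highest. The 11 osteoclast markers summed to 834 to 1321, 407 to 576 and 969 to 1343 TPM in the same order. That sum was mostly Car2 in the control and with pamidronate + GGOH, and the genes of the list did not move together. Car2 read 986, 151 and 709 CPM as group means, while Ctsk read 4.70, 32.9 and 10.8 and Atp6v0d2 58.2, 272 and 126, in the same order. Lists for T cells, B cells, fibroblasts, epithelium and neutrophils each summed to at most 12.0 TPM in any library. The endothelial list reached 12.1 to 28.8 TPM with pamidronate + GGOH, mostly Tek, against at most 4.64 TPM in the other groups, and Mcpt4 was at 0 in every library. The part of these shifts in the results below was not tested. In bulk RNA, fewer cells of a type and less RNA per cell cannot be told apart. Replicate 3 of pamidronate + GGOH stood apart from its group. Of 6047 genes called and at least 2-fold different between control and pamidronate, it lay nearest the control of its group for 73.5%.

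Promoter sequences are shown for 2 genes that rose, Dusp1 and Dusp5, and the 2 that fell, with the first pair holding matches to the motifs below and the second none, although Dusp10 and Spry1, which also rose, hold none either. They are the bases from -250 to -51 before the RefSeq start site on GRCm38.p6, written along the gene's strand, with the capitals marking matches to the motifs named after them. They lie at chr17:26508523-26508722 (minus strand), chr19:53528895-53529094 (plus strand), chr10:99262981-99263180 (plus strand) and chr2:117120821-117121020 (plus strand).
Dusp1: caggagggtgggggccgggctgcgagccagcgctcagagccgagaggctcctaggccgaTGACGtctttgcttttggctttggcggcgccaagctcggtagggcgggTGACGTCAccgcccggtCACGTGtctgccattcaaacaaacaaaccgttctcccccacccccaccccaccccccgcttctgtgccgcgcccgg
Dusp5: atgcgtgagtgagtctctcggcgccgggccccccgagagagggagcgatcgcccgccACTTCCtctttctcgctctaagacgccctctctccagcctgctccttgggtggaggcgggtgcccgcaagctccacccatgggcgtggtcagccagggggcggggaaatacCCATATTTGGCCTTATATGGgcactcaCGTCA
Dusp6: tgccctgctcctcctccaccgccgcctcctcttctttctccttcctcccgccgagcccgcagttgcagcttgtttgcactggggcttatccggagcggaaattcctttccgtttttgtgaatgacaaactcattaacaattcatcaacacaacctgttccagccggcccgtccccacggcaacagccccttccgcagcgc
Spred1: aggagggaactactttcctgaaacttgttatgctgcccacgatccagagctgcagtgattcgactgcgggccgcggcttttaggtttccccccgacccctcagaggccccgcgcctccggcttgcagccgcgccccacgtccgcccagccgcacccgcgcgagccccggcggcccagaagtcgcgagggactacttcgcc

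Windows of 300 bases (250 before to 50 after the start) were matched by symbol for 9 of the 10 genes, Dusp4 being the other. Both strands were searched for 6 motifs. The cyclic AMP response element TGACGTCA, which contains the shorter core TGACG, was in the Dusp1 window from -143 to -136 and in 1.79% of all 32851 windows of the table. The E-box CACGTG followed at -126 to -121 in Dusp1 and stood at -109 to -104 in Dusp2, and 7.15% of all windows held it. Dusp5 held adjoining CArG boxes, the core of the serum response element, at -82 to -73 and -72 to -63, and 1.63% of all windows held at least 1. The core TGACG, read as CGTCA where it lies on the other strand, was in Dusp1, Dusp2, Dusp5 and Dusp16 and in 20.8% of all windows. The ETS-type motif GGAAGT, which reads ACTTCC on the other strand, was in Dusp5 alone among the 9, and in 23.8% of all windows. The AP-1 motif TGANTCA was in 0 of the 9 and in 7.81% of all windows. No match to the 6 motifs was found in the windows of Dusp6, Dusp10, Spry1, Spry2 and Spred1. The most frequent of the 6 was in 23.8% of all windows, so the absence of a given motif is common. The share of all windows with no match to any of the 6 was not computed. The windows of the 4 printed genes were rich in G and C, at 67% in Dusp1, 66.7% in Dusp5, 57.3% in Dusp6 and 72.3% in Spred1, against a median of 52.7% over all windows. A match is a run of letters, and no binding was measured.

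The comparison of pamidronate with the control asked how the bisphosphonate changed these genes. Values are CPM (counts scaled to library size with TMM factors), and calls were made at an adjusted p under 0.05 from edgeR's quasi-likelihood fit (Benjamini-Hochberg over 15963 genes). In this comparison 9 of the 10 were called, 7 higher and 2 lower, where 69.2% of all genes tested were called, 36.2% higher and 32.9% lower, so a call by itself was common. All 9 of these were past 2-fold, against 37.9% of all genes called and past 2-fold, 21.5% higher and 16.3% lower. The median log2 fold change was 1.57 over the 10 genes and 0.08 over all genes tested. The groups did not overlap for 9 of the 10 genes, against 73.4% of all genes tested. Spry1, which passed the filter only through the treated groups, is among the genes counted as called, past 2-fold and without overlap.

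**Figure D1:**
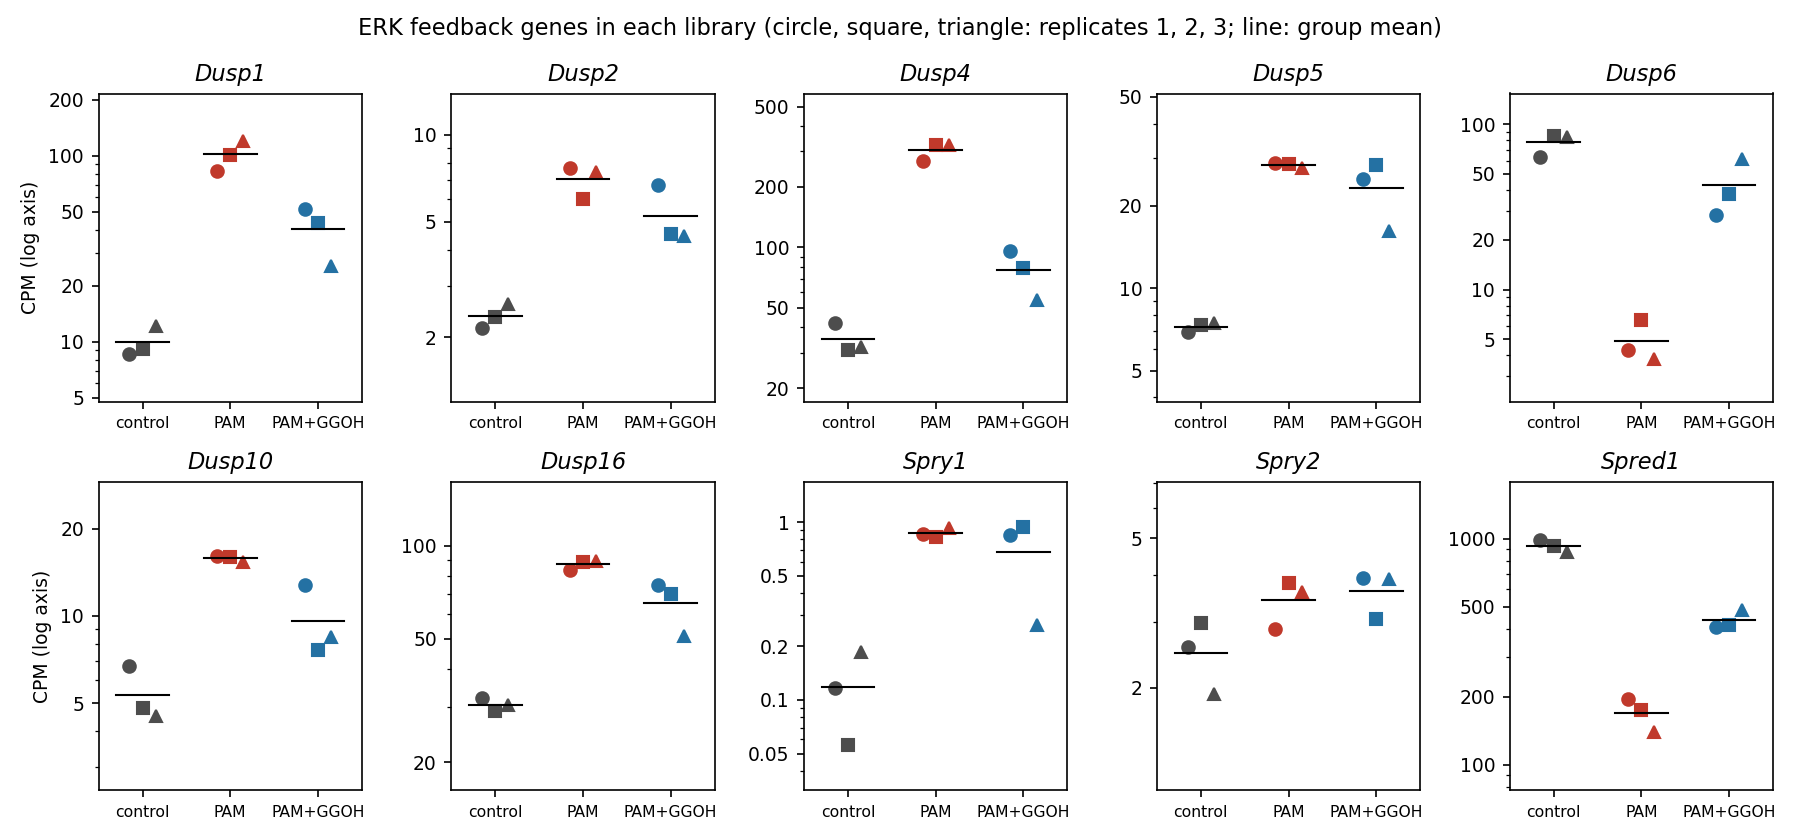
CPM of each gene in each library on a log axis, by group (PAM, pamidronate), with replicates 1, 2 and 3 as circle, square and triangle and the group mean as a line. Dusp6 and Spred1 were lowest in the pamidronate libraries, at 3.78 to 6.58 and 139 to 196 CPM, whereas Dusp1 and Dusp4 were highest there, at 83.2 to 120 and 268 to 323 CPM.

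Among the 5 ERK-linked phosphatases of the 10 genes, Dusp6 went down while the other 4 went up. Outside the 10, Dusp7 and Dusp3, which can also act on ERK, were called lower, at log2 fold changes of -0.69 and -1.91. Dusp9 was not called. Dusp6 encodes a cytoplasmic phosphatase that is selective for ERK (ENSMUSG00000019960, GRCm38 chromosome 10, 99263231 to 99267488). It stood at 63.3, 85.0 and 83.9 CPM in control replicates 1, 2 and 3, and at 4.34, 6.58 and 3.78 CPM in the pamidronate libraries. All 3 pamidronate libraries lay far below the lowest control. The log2 fold change was -3.98 ± 0.36 (SE, adjusted p = 2.35e-05). Dusp4, a nuclear phosphatase for ERK and JNK (ENSMUSG00000031530, chromosome 8, 34807297 to 34819894), read 42.3, 30.8 and 31.8 CPM in the control and 268, 323 and 321 CPM with pamidronate. The pamidronate libraries lay well above every control. Its log2 fold change was 3.12 ± 0.21 (SE, adjusted p = 6.41e-07).

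Dusp1 encodes MKP-1, an inducible nuclear phosphatase that acts on p38 and JNK as well as ERK and limits cytokine output in macrophages (ENSMUSG00000024190, chromosome 17, 26505590 to 26508519). It read 8.59, 9.13 and 12.1 CPM in the control and 83.2, 101 and 120 CPM with pamidronate. The groups lay far apart, with a log2 change of 3.35 ± 0.29 (SE, adjusted p = 1.32e-05). Dusp5, a nuclear phosphatase selective for ERK (ENSMUSG00000034765, chromosome 19, 53529109 to 53542431), read 6.95, 7.33 and 7.48 CPM in the control. With pamidronate it read 28.6, 28.4 and 27.5 CPM. The spread within each group was small against the gap, and the log2 fold change was 1.96 ± 0.17 (SE, adjusted p = 1.76e-07). Dusp2, an immune-cell nuclear phosphatase (ENSMUSG00000027368, chromosome 2, 127336159 to 127338376), was the least abundant of the 5 per length in the control. It rose from 2.16, 2.35 and 2.60 CPM to 7.70, 6.01 and 7.43 CPM, a log2 change of 1.57 ± 0.21 (SE, adjusted p = 1.28e-05). On the minus strand, AC137853.2 overlaps the start of Dusp5 in GENCODE M21, and the strand setting of the counting is not given in the sources used here.

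Dusp10 and Dusp16, whose products act on p38 and JNK rather than on ERK, rose together. Dusp16 (ENSMUSG00000030203, chromosome 6, 134715468 to 134792625) read 32.1, 29.2 and 30.5 CPM in the control and 83.5, 88.6 and 89.1 CPM with pamidronate. The groups lay apart, with a log2 change of 1.51 ± 0.12 (SE, adjusted p = 6.92e-08). Dusp10 (ENSMUSG00000039384, chromosome 1, 184013302 to 184075636) read 6.72, 4.81 and 4.51 CPM in the control. With pamidronate it read 16.1, 16.0 and 15.3 CPM, all above the highest control, and the log2 fold change was 1.56 ± 0.20 (SE, adjusted p = 7.23e-06). Together they summed to 12.8 ± 0.571 TPM (SD, n = 3) in the control, 40.6 ± 0.251 with pamidronate and 32.7 ± 5.76 with pamidronate + GGOH, again without overlap (exact permutation p = 0.1 for each pair). Opposite-strand genes overlap both of them, 1700056E22Rik with 2 to 12 counts at Dusp10 and Gm36328 with 2 to 18 counts at Dusp16, far fewer than the 73 and 493 counts in the lowest library of either phosphatase.

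The 3 Sprouty and Spred genes among the 10, Spry1, Spry2 and Spred1, were split. Spred1 carried 99.1% ± 0.143 (SD, n = 3) of the summed TPM of these 3 in the control. Its share was 92.6% ± 1.81 with pamidronate and 97.0% ± 0.444 with pamidronate + GGOH. Spred2 and Spred3, described below, are outside that sum. That sum was 313 ± 6.91, 67.0 ± 11.4 and 188 ± 19.3 TPM in the same order, with no overlap between groups (exact permutation p = 0.1 for each pair, the smallest possible). Spred1 encodes an adaptor that brings neurofibromin to Ras at the membrane and so holds Ras down (ENSMUSG00000027351, chromosome 2, 117121374 to 117182279). It read 989, 929 and 873 CPM in the control and 196, 174 and 139 CPM with pamidronate. Every pamidronate library lay below every control, with a log2 change of -2.46 ± 0.13 (SE, adjusted p = 2.73e-09). Spry2, an adaptor that interferes with receptor signalling to Ras and Raf (ENSMUSG00000022114, chromosome 14, 105891949 to 105896819), read 2.57, 2.97 and 1.92 CPM in the control. With pamidronate it read 2.87, 3.80 and 3.59 CPM. These groups overlapped, and the gene was not called at a log2 change of 0.45 (95% interval -0.04 to 0.95, adjusted p = 0.0919). Upper-quartile factors, which moved the median of all genes from 0.08 to 0.28, brought it to 0.65 and a call (adjusted p = 0.0215). Spry1, a relative of Spry2 (ENSMUSG00000037211, chromosome 3, 37639947 to 37644598), was close to the detection limit, with 2, 1 and 3 counts in the control libraries and 14, 13 and 15 with pamidronate. It was called higher at 2.81 ± 0.63 (SE, adjusted p = 0.00104), but it entered the test only because of the treated libraries, and Gm42922 on the other strand, which overlaps its start, had 0 to 3 counts.

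**Figure D2:**
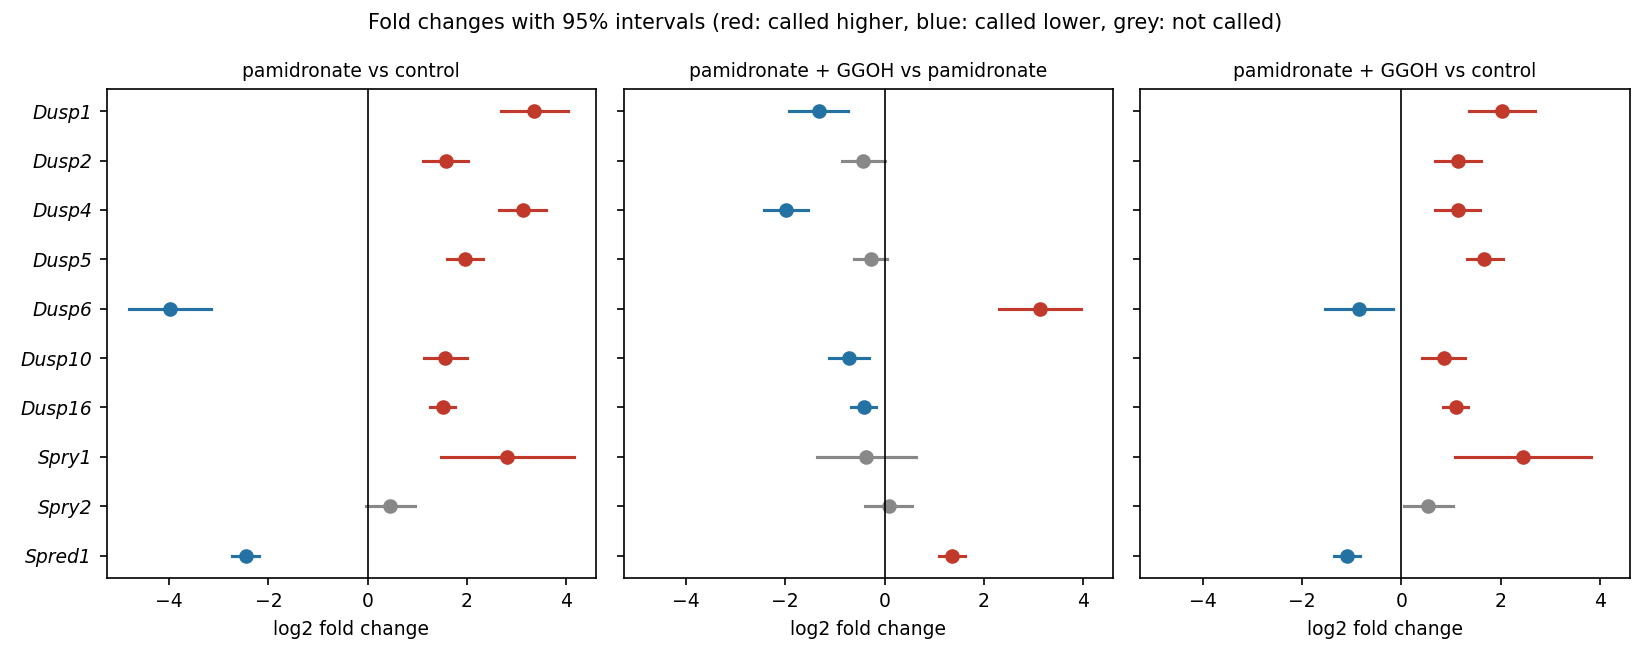
Log2 fold changes (x axis) of the 10 genes in the 3 comparisons from edgeR's quasi-likelihood fit, with lines for the 95% interval and red, blue and grey for called higher, called lower and not called. Dusp6 and Spred1 are the only ones of the 10 called lower with pamidronate than in the control, at -3.98 and -2.46.

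The makeup of the pool formed by the 5 ERK-linked phosphatases among the 10 genes changed. Dusp7 and Dusp3 are outside this pool. On the TPM scale, in which genes can be compared per length, the 5 genes Dusp1, Dusp2, Dusp4, Dusp5 and Dusp6 summed to 96.1, 114 and 119 TPM in the control. They summed to 372, 420 and 437 TPM with pamidronate and to 217, 210 and 173 TPM with pamidronate + GGOH. The 3 groups did not overlap, with an exact two-sided permutation p of 0.1 for each pair, the smallest that 3 against 3 allows. Dusp6 made up 50.1%, 61.8% and 59.5% of that sum in the control libraries and 1.07%, 1.37% and 0.760% in the pamidronate libraries. With pamidronate + GGOH its share was 13.0%, 18.8% and 36.6%. Dusp4 went the other way, with a mean share of 26.7% ± 6.49 (SD, n = 3) in the control, 67.1% ± 1.29 with pamidronate and 39.4% ± 5.92 with pamidronate + GGOH, where it overlapped the control (exact permutation p = 0.2). The share of Dusp1 was 7.61% ± 1.13, 22.7% ± 2.09 and 20.9% ± 4.69 in the same order, and the treated groups overlapped (exact permutation p = 0.8). Without Dusp4, the other 4 summed to 80.8 ± 15.4 TPM in the control, 135 ± 13.8 with pamidronate and 120 ± 5.37 with pamidronate + GGOH, and the treated groups overlapped (exact permutation p = 0.2).

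**Figure D3:**
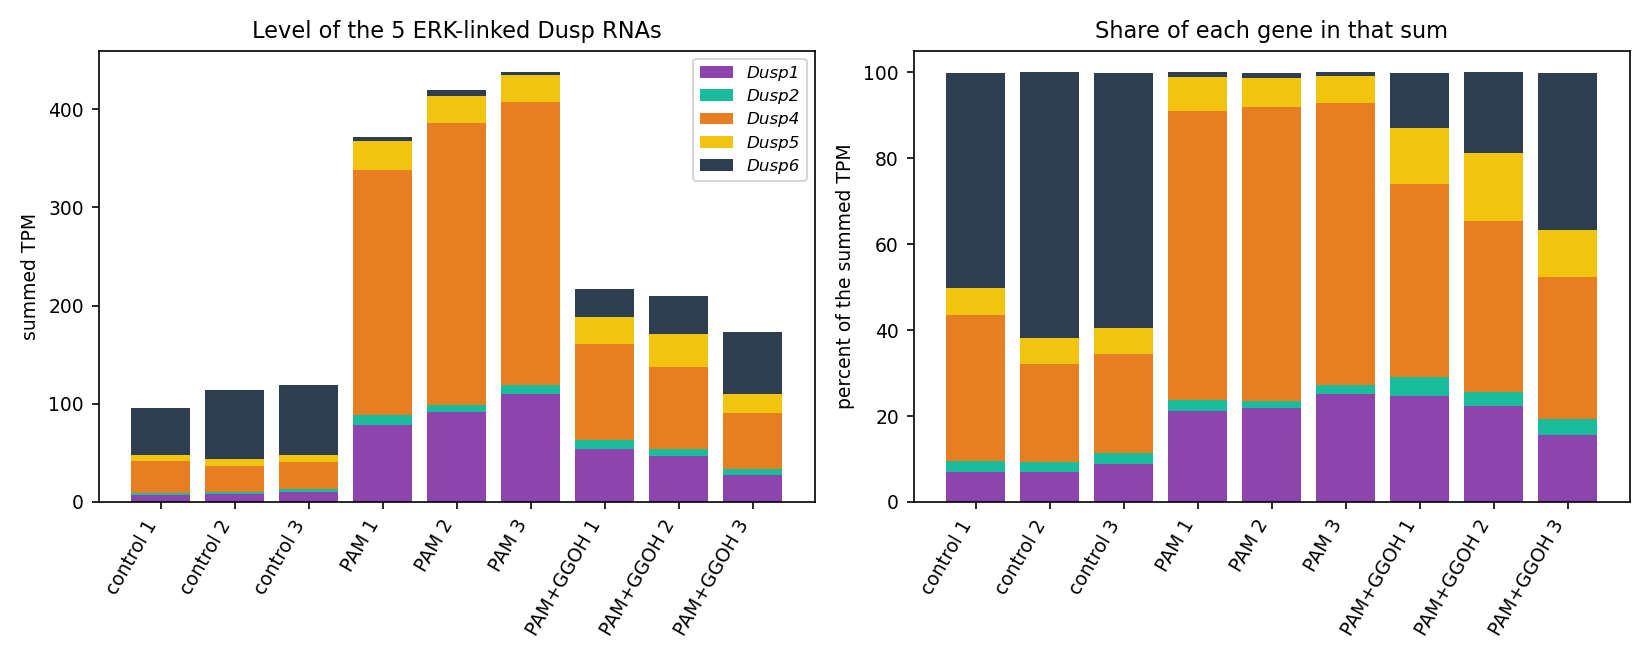
Stacked bars of the 5 ERK-linked Dusp genes among the 10 in each of the 9 libraries, as TPM (left) and as percent of their sum (right). The dark segment, Dusp6, fills 50.1% to 61.8% of the control bars and 0.760% to 1.37% of the pamidronate bars.

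The same contrast can be read within a library, where the scaling between libraries cancels. The log2 ratio of Dusp4 counts to Dusp6 counts was -0.58, -1.46 and -1.40 in the control libraries. It was 5.95, 5.62 and 6.41 with pamidronate and 1.76, 1.06 and -0.17 with pamidronate + GGOH. No 2 groups overlapped (exact permutation p = 0.1 for each pair, the smallest possible). In each comparison the groups were apart for Dusp4 and for Dusp6, in opposite directions. The separation of their ratio follows from that and is no separate evidence. The ratio of Dusp1 to Dusp4 moved far less, with control libraries at -1.82 ± 0.46 (SD, n = 3) and pamidronate libraries at -1.59 ± 0.15, and these overlapped (exact permutation p = 0.5). With pamidronate + GGOH it was -0.95 ± 0.14, apart from both other groups (exact permutation p = 0.1 for each). The log2 ratio of Dusp6 to Spred1 went from -3.60 ± 0.32 in the control to -5.14 ± 0.39 with pamidronate, without overlap (exact permutation p = 0.1). It was -3.42 ± 0.44 with pamidronate + GGOH, overlapping the control (exact permutation p = 0.6).

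The order of levels changed as well. In the control, Spred1 led at 310 ± 6.41 TPM (SD, n = 3), followed by Dusp6 at 63.1 ± 12.9 and Dusp4 at 28.8 ± 3.62. Dusp16 at 8.88 and Dusp1 at 8.40 came next and overlapped, and Dusp1 also overlapped Dusp5 at 6.66. Dusp10 at 3.95 lay above Dusp2 and Spry2, which overlapped at 2.69 TPM each, and Spry1 was last at 0.0936. With pamidronate, Dusp4 led at 275 ± 21.9 TPM, ahead of Dusp1 at 93.3 ± 15.5 and Spred1 at 62.2 ± 11.8. Dusp5 at 28.3 and Dusp16 at 27.7 overlapped, and Dusp10 at 12.9 and Dusp2 at 8.75 stood apart from each other. Dusp6 at 4.34 ± 1.25 had dropped to the level of Spry2 at 4.06, which it overlapped. With pamidronate + GGOH, Spred1 led again at 183 ± 19.5 TPM, and Dusp4 at 79.6 ± 20.4 overlapped Dusp6 at 43.7 ± 17.9. Dusp6 in turn overlapped Dusp1 at 42.5 ± 13.8.

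The comparison of pamidronate + GGOH with pamidronate asked what GGOH changed in cells given the bisphosphonate. It shares the pamidronate libraries with the comparison above. Of the 10 genes 2 were called higher and 4 lower, where 48.8% of all genes tested were called, 25.2% higher and 23.6% lower. At least 2-fold calls were 2 higher and 2 lower among the 10, against 16.2% of all genes, 10.2% higher and 6.03% lower. The median over the 10 genes was -0.39 and that over all genes tested was 0.00. The groups did not overlap for 6 of the 10, against 59.6% of all genes tested. Dusp6 read 28.4, 38 and 61.8 CPM in the 3 libraries with GGOH, all above the highest pamidronate library at 6.58. Its log2 fold change was 3.13 ± 0.35 (SE, adjusted p = 2.16e-04), and 2.80 (adjusted p = 1.20e-05) without replicate 3. Spred1 read 405, 416 and 483 CPM with GGOH, again above every pamidronate library, at 1.36 ± 0.12 (SE, adjusted p = 1.22e-06).

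Among the genes raised by pamidronate, Dusp4 had the most negative estimate between the treated groups. It read 96.2, 79.2 and 54.9 CPM, below every pamidronate library, a log2 change of -1.99 ± 0.20 (SE, adjusted p = 3.21e-05) and of -1.75 without replicate 3. Dusp1 read 51.9, 43.7 and 25.5 CPM, also below every pamidronate library, at -1.33 ± 0.26 (SE, adjusted p = 0.00327) and -1.04 without replicate 3. Dusp10 read 12.8, 7.60 and 8.46 CPM, a change of -0.71 ± 0.19 (SE, adjusted p = 0.00645), which was no longer called without replicate 2 (adjusted p = 0.0561). Dusp16 read 74.4, 69.7 and 51.2 CPM, a change of -0.42 ± 0.12 (SE, adjusted p = 0.00756) that shrank to -0.23 (adjusted p = 0.0392) without replicate 3. For both of these phosphatases the treated groups lay apart.

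The remaining 4 genes were not called between the treated groups. Dusp5 read 25.1, 28.2 and 16.2 CPM with GGOH, overlapping pamidronate, at a log2 change of -0.28 (95% interval -0.62 to 0.05, adjusted p = 0.151). Dusp2 read 6.70, 4.55 and 4.47 CPM, at -0.43 (interval -0.85 to -0.00, adjusted p = 0.0879), and was called lower when replicate 1 was left out (-0.60, adjusted p = 0.0261). Spry2 read 3.92, 3.05 and 3.89 CPM, at 0.09 (interval -0.39 to 0.56, adjusted p = 0.775). Spry1 had 15, 15 and 5 counts, at -0.37 (interval -1.36 to 0.63, adjusted p = 0.542). For Spry1 the interval is wide enough to hold a 2-fold difference in the lower direction, so the depth limits what can be said.

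The comparison of pamidronate + GGOH with the control asked how far the 10 genes still differed from untreated levels, and it shares libraries with both comparisons above. Of the 10, 7 were called higher and 2 lower, where 52.4% of all genes tested were called, 26.3% higher and 26.0% lower. Upper-quartile factors made 69.2% of all calls higher in place of 50.3% and moved the median of all genes from 0.02 to 0.23. Past 2-fold were 6 higher and 1 lower of the 10, against 19.3% of all genes, 15.2% higher and 4.05% lower. The 7 higher were the same as with pamidronate alone (Dusp1, Dusp2, Dusp4, Dusp5, Dusp10, Dusp16 and Spry1), and Dusp6 and Spred1 were the 2 lower. The median was 1.11 over the 10 genes and 0.02 over all genes tested, and the groups did not overlap for 10 of the 10, against 58.2% of all genes tested. Dusp1 was 2.02 ± 0.29 and Dusp5 1.67 ± 0.17 (SE) higher on the log2 scale (adjusted p = 6.02e-04 and 5.63e-06). Dusp2, Dusp4 and Dusp16 were higher by 1.14 ± 0.22, 1.13 ± 0.20 and 1.09 ± 0.12 (SE), and Dusp10 by 0.85 ± 0.20 (SE). Spry1 rested on 6 counts in the control group and 35 with pamidronate + GGOH, at 2.44 ± 0.64 (SE, adjusted p = 0.00555). It was tested here only through the pamidronate libraries, since 0 control and 2 pamidronate + GGOH libraries passed the cutoff of the filter, and it had no test in a fit of these 2 groups alone, which called 6 of the 10 higher. Spred1 was lower, at -1.10 ± 0.12 (SE, adjusted p = 9.96e-06).

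Dusp6 had the highest adjusted p of the 9 called genes, at -0.85 ± 0.29 (SE, adjusted p = 0.0418). Its lowest control, at 63.3 CPM, lay just above the highest library with GGOH, at 61.8 CPM. The call was lost in 6 of the 9 fits that left out 1 library, with adjusted p from 0.0530 to 0.119, namely those without replicates 2 or 3 of the control, 1 or 3 of pamidronate, and 1 or 2 of pamidronate + GGOH. Without pamidronate + GGOH replicate 3 the log2 fold change was -1.24 (adjusted p = 7.42e-04). It was also lost with upper-quartile factors (-0.66, adjusted p = 0.0723), with no filter (adjusted p = 0.126), with a stricter filter (adjusted p = 0.0507) and in a fit of these 2 groups alone (adjusted p = 0.0615). Spry2 was not called in this comparison, at 0.54 (95% interval 0.05 to 1.03, adjusted p = 0.0590), and upper-quartile factors brought it to 0.74 and a call (adjusted p = 0.0147).

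A position between the control and pamidronate means shows the same levels on 1 scale, on which 0% is the control mean and 100% the pamidronate mean in log2 CPM. It was computed for the 9 genes whose means differed at least 2-fold. The libraries with GGOH lay at 7.76% to 35.8% for Dusp6, at 21.3% to 47.1% for Dusp4 and at 38.2% to 48.5% for Spred1. Dusp1 was further towards pamidronate, at 41.0% to 71.6%. Dusp5 lay at 59.4% to 100%, Dusp16 at 49.2% to 85.0% and Dusp2 at 58.6% to 95.9%. Dusp10 ranged from 33.4% to 81.0%, and Spry1, on few counts, from 43.0% to 104%. Replicate 3 was nearest the control for 8 of these 9 genes. These positions have no test, and differences in position between genes were not tested.

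**Figure D4:**
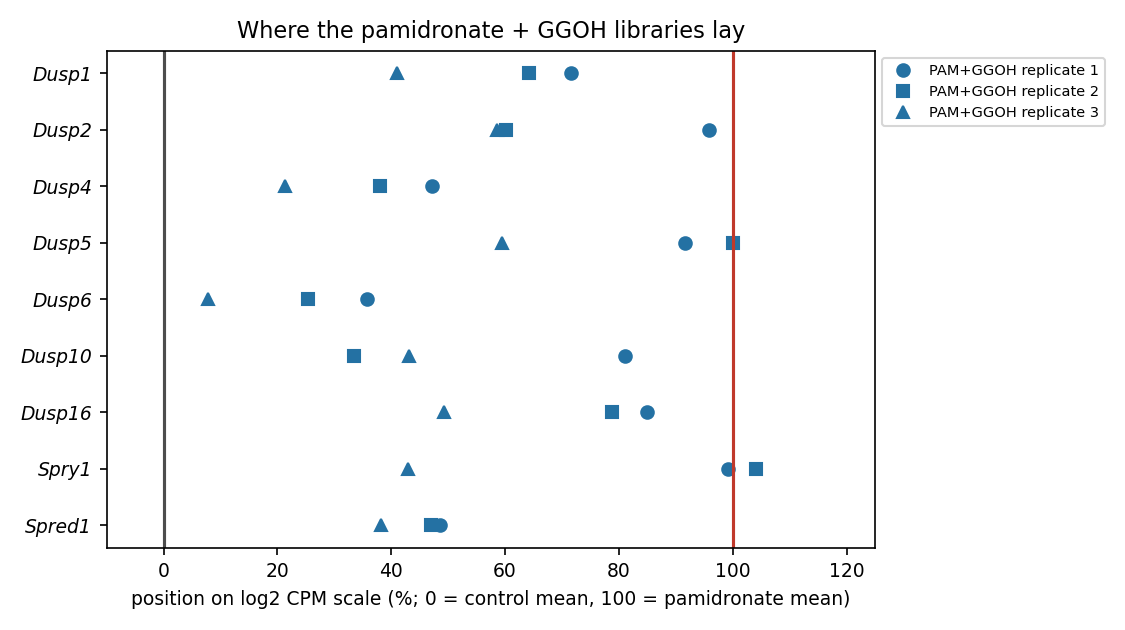
Position of each pamidronate + GGOH library (circle, square and triangle for replicates 1, 2 and 3) between the control mean at 0% and the pamidronate mean at 100% on the log2 CPM scale, for the 9 genes that differed at least 2-fold. Replicate 3 (triangle) is nearest 0% for 8 of the 9, all but Dusp10.

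The rest of the Dusp, Sprouty and Spred relatives also split. Of 7 listed, 5 were tested, while Spry4 had 2 to 22 counts in each library and, with Spry3, did not pass the filter. With pamidronate 2 were called higher and 2 lower, where 36.2% and 32.9% of all genes were. Dusp9 was not called (0.62 ± 0.41, SE, adjusted p = 0.190). Spred2, which acts like Spred1, fell from 118 to 56.8 CPM (log2 fold change -1.05 ± 0.08, SE, adjusted p = 5.81e-08) and stood at 101 CPM with pamidronate + GGOH. Dusp7, a cytoplasmic ERK phosphatase like Dusp6, fell from 96.4 to 59.7 CPM (-0.69 ± 0.11, SE, adjusted p = 4.95e-05). Dusp8, which acts on JNK and p38, rose from 0.699 to 9.52 CPM (3.75 ± 0.38, SE, adjusted p = 1.38e-06) and stood at 3.46 CPM with pamidronate + GGOH. Only 2 control libraries of Dusp8 passed the cutoff of the filter, so it was tested through the treated groups. Spred3 rose by 0.82 ± 0.15 (SE, adjusted p = 3.12e-04).

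Other targets of ERK moved in both directions. Of 37 listed, 34 were tested, and with pamidronate 20 were called higher and 12 lower, with a median log2 fold change of 0.40, where 36.2% of all genes were called higher and 32.9% lower. Etv5 and Egr1, transcription factors whose genes respond to ERK, fell by 1.14 and 1.27 on the log2 scale (adjusted p = 2.78e-06 and 0.00288). Ccnd1, cyclin D1, fell from 358 to 77.1 CPM (-2.22 ± 0.15, SE) and stood at 248 CPM with pamidronate + GGOH. Egr3 fell from 10.2 to 1.14 CPM, and Klf2 from 25.5 to 4.69 CPM. In the other direction, Myc rose from 0.685 to 77.5 CPM (6.81 ± 0.48, SE, adjusted p = 4.82e-06) and stood at 12.7 CPM with pamidronate + GGOH. Lif, a cytokine, rose from 0.831 to 7.41 CPM, and Fosb, an AP-1 subunit, from 1.88 to 15.9 CPM. Myc and Lif, like Dusp8, had control libraries under the cutoff of the filter. Errfi1, which inhibits EGF-family receptors and stands in 2 of the lists, rose from 15.9 to 115 CPM. Fos was not called in any of the 3 comparisons, with group means of 38.6, 45.5 and 39.5 CPM. Between the treated groups, 8 targets were called higher with GGOH and 13 lower, where 25.2% and 23.6% of all genes were. Ccnd1 and Klf2 were higher, at 1.69 ± 0.15 and 1.94 ± 0.21 (SE), and Myc, Errfi1 and Lif were lower, at -2.61 ± 0.33, -2.28 ± 0.14 and -1.75 ± 0.30 (SE). Against the control, 15 targets were higher and 12 lower with pamidronate + GGOH, where 26.3% and 26.0% of all genes were. Ier3, an early response gene, was highest in that group, at 155 CPM against 47.2 and 74.5 CPM in the control and pamidronate groups.

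The cascade that these genes restrain was mostly lower in RNA with pamidronate. Of 36 listed genes of the Ras and ERK cascade, 35 were tested. With pamidronate 5 were called higher and 22 lower, where 36.2% and 32.9% of all genes were. The list's median log2 fold change was -0.70 against 0.08 over all genes. Mapk3, which encodes an ERK kinase, fell by 1.36 on the log2 scale (adjusted p = 8.03e-08). Nras fell by 0.91, and Hras was not called (-0.09 ± 0.11, SE, adjusted p = 0.478). Rasgrp4, which loads Ras with GTP, fell from 30.3 to 2.50 CPM. Rps6ka3, a kinase downstream of ERK, and Elk3, an ETS factor that ERK phosphorylates, fell by 2.04 and 1.83. With GGOH added, 16 of the 35 were called higher and 4 lower, where 25.2% and 23.6% of all genes were. Rasgrp4 stood at 16.3 CPM with pamidronate + GGOH. Against the control, 5 were higher and 19 lower, where 26.3% and 26.0% of all genes were. Mapk3 was lower there, at -1.17 ± 0.11 (SE, adjusted p = 2.82e-06).

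Receptors that feed Ras in these cells were mostly lower with pamidronate. Of 20 listed, 14 were tested, and with pamidronate 2 were called higher and 10 lower, with a median of -1.26, where 36.2% and 32.9% of all genes were. Csf1r, the M-CSF receptor, fell from 1391 to 98.5 CPM (-3.82 ± 0.30, SE, adjusted p = 4.59e-06) and stood at 424 CPM with GGOH. Tnfrsf11a, which encodes RANK, changed by -1.33 ± 0.12 (SE, adjusted p = 1.70e-07). Itgam, the integrin subunit CD11b, read 117, 8.72 and 92.3 CPM as means of control, pamidronate and pamidronate + GGOH. With GGOH 9 of the 14 were called higher than with pamidronate alone and the other 5 were not called. Of those 9, 5 were at least 2-fold higher. Over all genes tested, 25.2% were called higher in that comparison, and 10.2% were called and at least 2-fold higher. Against the control, 1 was higher and 7 lower with pamidronate + GGOH, where 26.3% and 26.0% of all genes were. The list's median there was -0.53. The gene called higher there was Itgb3, an integrin subunit of osteoclasts, which read 1.53 CPM in the control, 8.04 with pamidronate and 11.7 with pamidronate + GGOH. With pamidronate its log2 fold change was 2.39 ± 0.21 (SE, adjusted p = 2.01e-07), and the other receptor called higher was Igf1r, from 0.490 to 1.12 CPM (adjusted p = 0.0245), which passed the filter only through the treated groups. Whether the receptor levels bear on the feedback genes was not tested.

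**Figure D5:**
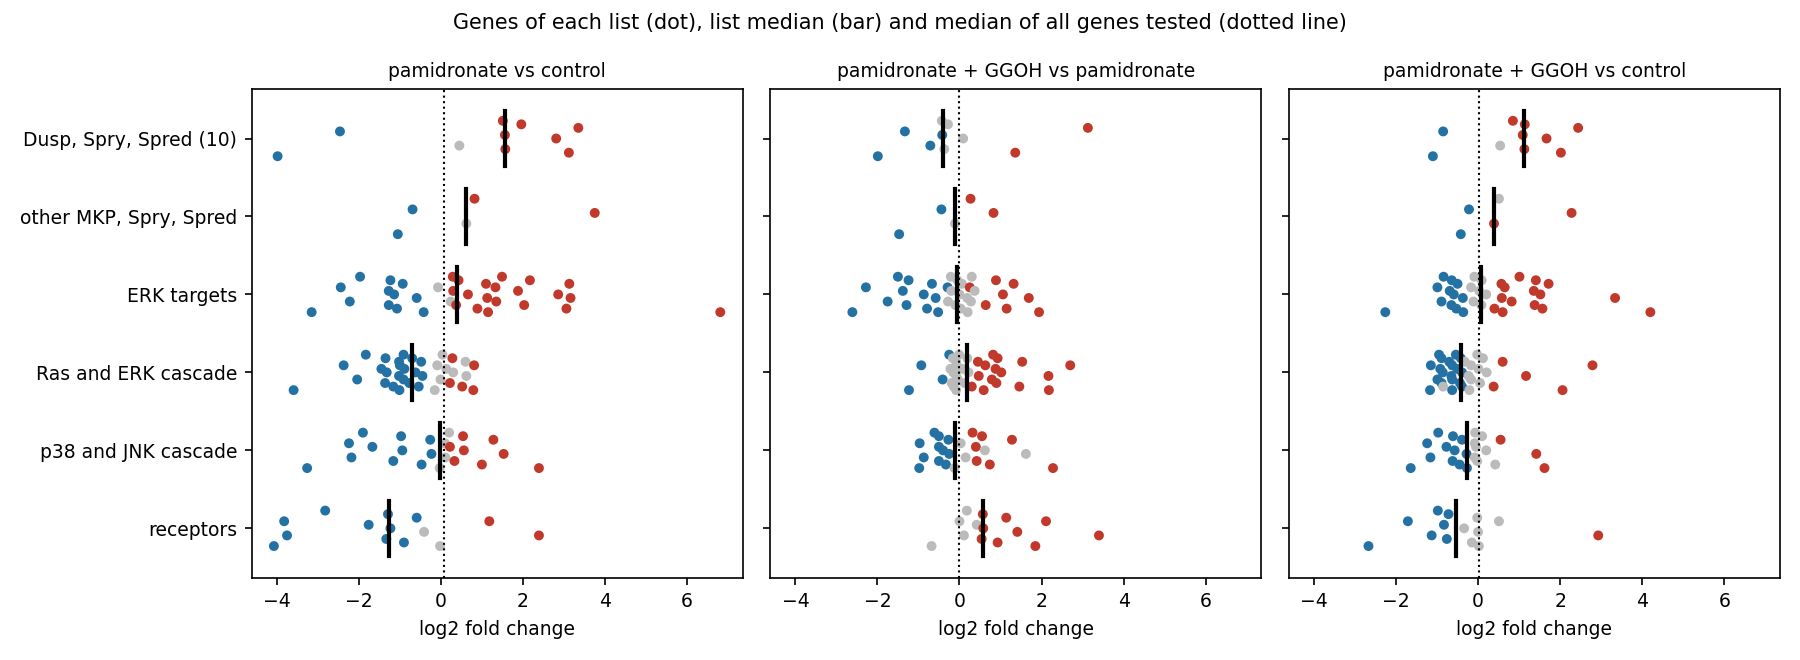
Log2 fold changes (x axis) of the tested genes of 6 lists in the 3 comparisons, with red, blue and grey dots for called higher, called lower and not called, a bar at the list's median and a dotted line at the median of all genes tested. In pamidronate against control, the bar of the 10 Dusp, Sprouty and Spred genes is at 1.57, while those of the cascade and the receptors are at -0.70 and -1.26.

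The p38 and JNK cascade, which Dusp1, Dusp10 and Dusp16 restrain, moved both ways with pamidronate. Of 26 listed, 23 were tested, and with pamidronate 8 were called higher and 11 lower, with a median of -0.03, where 36.2% and 32.9% of all genes were. Mapk14, which encodes p38 alpha, and its target kinase Mapkapk2 fell by 1.90 and 1.67 on the log2 scale (adjusted p = 4.11e-09 and 3.52e-07). Map3k5, an upstream stress kinase, fell by 2.24. Atf3, a stress-induced transcription factor, rose from 31.5 to 165 CPM (2.39 ± 0.13, SE), and Map3k2 from 103 to 297 CPM. With GGOH added to pamidronate, 7 were higher and 11 lower, where 25.2% and 23.6% of all genes were. Atf3 stood at 84.3 CPM with pamidronate + GGOH. Against the control, 3 were higher and 12 lower with pamidronate + GGOH, with a median of -0.27, where 26.3% and 26.0% of all genes were.

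Profiles were compared for genes with at least 5 CPM on average, leaving out predicted genes (Gm plus digits) and clone names (ending in Rik). Among 9383 such genes, those most like Dusp6 across the 9 libraries were Cnr2, Clec5a and Prune2. Their root mean square differences from Dusp6 were 0.23, 0.24 and 0.25 on the log2 CPM scale after centring each gene on its own mean. Clec5a, a myeloid lectin receptor, read 170, 13.9 and 93.7 CPM as means of control, pamidronate and pamidronate + GGOH.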

How the data were processed

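RNA was measured by sequencing of ribosome-depleted total RNA from RAW 264.7 cells in 9 libraries, 3 per group, from 300 ng of RNA each, per the labels' protocols. The authors deposited whole-number counts per gene for 49315 genes. The authors also deposited TPM per gene, and the deposited TPM equal count over exon length, scaled per library, to within 5e-05. Trimmomatic 0.36, the mouse build GRCm38 and DESeq are named in the submitters' processing notes. For the aligner, counting tool, annotation release and strand setting, nothing is stated in the sources used here.

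Genes were kept at the defaults of edgeR's filterByExpr (a CPM of 0.601 in at least 3 libraries), which left 15963. TMM factors and edgeR 4.0.16's quasi-likelihood test in R 4.3.3 were used with all 9 libraries in 1 model, and p-values were adjusted by Benjamini-Hochberg over all genes tested. Standard errors were derived from each log2 fold change and its F statistic. Summed TPM and ratios were compared by an exact two-sided permutation test. Totals were 14356069 to 18957968 counts, and the biological coefficient of variation was 0.127. Alternatives were RLE and upper-quartile factors, library sizes without abundant RNAs, other filters, DESeq2 1.42.0, limma-voom 3.58.1, 2 groups only, a replicate block, a threshold of 0.01 and leaving out each library.

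The 10 genes and all lists were chosen with earlier results of these data known. Named beyond the 10 were up to 4 called genes per list with the largest change and at least 5 CPM in the higher group, a fixed set (Csf1r, Tnfrsf11a, Hras, Nras, Mapk3, Egr1, Fos, Etv5, Ccnd1, Myc, Spry4, Spred2), and the 3 profiles nearest the leading gene of each comparison (given for Dusp6 only, since Spry1, the leading gene of the third, passed the filter only through the groups where it is high). Some genes that the rule picks are not reported here. Dusp9, Igf1r, Car2, Ctsk and Atp6v0d2 were named in addition, after their values were seen. Promoter windows came from RefSeq on GRCm38.p6, and gene positions from the authors' deposited per-gene counts. For 7 of the 10 genes these positions were the same in GENCODE M21 on GRCm38, which gave the overlapping genes.

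The control titles call their libraries biological replicates. For the treated groups the labels do not say that libraries came from separate cultures, so p-values may there measure technical spread alone. Libraries of a group differed by more than sampling noise (chi-square per degree of freedom 3.72 to 32.9), so none was counted as a copy. Equal replicate numbers did not pair the libraries. The labels give 1 batch.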

Additional observations from a re-analysis of the deposited data

How the results depend on the processing

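Of 563 tests of the 10 genes under the alternatives, 546 kept their direction and their side of the threshold, 12 lost the call, 3 gained one and 2, both of genes not called, changed sign. Spry1 and Spry2 could not be tested under a filter of at least 5 CPM in 3 libraries, nor Spry1 in pamidronate + GGOH against control with the 2 groups alone. The number of the 10 called higher was 7 with pamidronate, 6 with that filter and 8 with upper-quartile factors. Against the control it was 7 with pamidronate + GGOH, 6 with that filter and with the 2 groups alone, and 8 with upper-quartile factors. The direction of all 10 genes held under the 4 scalings in each comparison. The number called lower with pamidronate + GGOH than in the control was 2, and was 1, through loss of Dusp6, with upper-quartile factors, no filter, a filter of at least 5 CPM in 3 libraries, the 2 groups alone and a threshold of 0.01. It was 1 to 2 over the fits without 1 library. In that comparison upper-quartile factors also left 2600 of all genes called lower in place of 4157. The cause was not tested.

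The log2 ratio of the summed ERK-linked Dusp TPM was 1.90, -1.03 and 0.87 in the 3 comparisons (pamidronate against control, pamidronate + GGOH against pamidronate, and pamidronate + GGOH against control), and 1.76, -1.24 and 0.51 with summed CPM. Without Dusp4 it was 0.74, -0.16 (exact permutation p = 0.2) and 0.58. For Dusp10 and Dusp16, summed CPM gave 1.52 in the first and 1.06 in the third in place of 1.66 and 1.35, and Dusp10 alone gave -0.52 in the second in place of -0.31. For Spry1, Spry2 and Spred1, summed CPM gave -2.42 in the first and -1.09 in the third in place of -2.22 and -0.73. Without Spred1 the sums went to 0.79, 0.22 and 1.01, the first and the third with the sign reversed, because only the Sprouty genes are then left.

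Leaving out 1 library at a time gave ranges that cross 0 for uncalled differences. Between the treated groups these were Spry1 (-0.60 to 0.08), Spry2 (-0.03 to 0.24), Hras (-0.13 to 0.01) and Dusp9 (-0.37 to 0.16). The others were Dusp11 with pamidronate (-0.04 to 0.23), and Fos (-0.08 to 0.12) and Dusp19 (-0.21 to 0.04) in pamidronate + GGOH against control. Upper-quartile factors turned Hras to 0.10 with pamidronate and 0.03 with pamidronate + GGOH against control, and Dusp19 to 0.10 in the latter. The filter of at least 5 CPM gave 0.05 for Hras with pamidronate and 0.05 for Dusp19 with pamidronate + GGOH, and no filter gave -0.00 for Fos.

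Libraries with the same replicate number correlated at -0.22 to 0.20 in their deviations from the group means. With the replicate number as a block, 7 genes were called higher and 2 lower with pamidronate, 2 and 4 between the treated groups, and 7 and 2 against the control, the same counts as without the block. Depth limits Spry1 most, with 1 to 3 counts in a control library.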

Other observations

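Outside the MAP kinase phosphatases, 10 of 16 listed atypical dual-specificity phosphatases were tested. With pamidronate 1 was called higher and 3 lower, where 36.2% and 32.9% of all genes were. Dusp3, a small phosphatase that can act on ERK and JNK, read 153 CPM in the control, 40.8 with pamidronate and 109 with pamidronate + GGOH, a log2 fold change with pamidronate of -1.91 ± 0.11 (SE, adjusted p = 6.76e-09). Dusp22 read 10.5, 2.69 and 5.64 CPM in the same order (-1.96 ± 0.22, SE), and Dusp19 9.86, 6.23 and 9.20 CPM (-0.66 ± 0.17, SE). Dusp13 was the gene called higher, from 0.468 to 6.10 CPM (3.68 ± 0.33, SE), and stood at 3.10 CPM with pamidronate + GGOH. It passed the filter only through the treated groups. Dusp11, which acts on RNA rather than on kinases, was called in both comparisons of pamidronate + GGOH, at 187 CPM against 307 CPM with pamidronate and 283 CPM in the control (-0.71 ± 0.10 and -0.60 ± 0.10, SE).

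Brakes on Ras and Raf outside these families split with pamidronate. Of 24 listed, 23 were tested, with a median log2 fold change of -0.07 with pamidronate. In that comparison 5 were called higher and 10 lower, where 36.2% and 32.9% of all genes were. With GGOH added, 8 were higher and 4 lower than with pamidronate, where 25.2% and 23.6% of all genes were. Against the control, 6 were higher and 14 lower with a median of -0.34, where 26.3% and 26.0% of all genes were called. Dgka, a diacylglycerol kinase that limits RasGRP activity, fell from 24.2 to 4.66 CPM and stood at 16.4 CPM with pamidronate + GGOH. Dok2, an adaptor that recruits a Ras GTPase-activating protein, fell from 51.4 to 12.1 CPM and stood at 32.4 CPM. Cblb, a ubiquitin ligase that acts on receptor signalling, rose from 26.4 to 53.1 CPM and stood at 57.1 CPM, with no call between the treated groups (adjusted p = 0.483).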
